A study of Sus scrofa with 10 samples.

Results

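The pig ovary transcripts described here are unannotated loci that lie on the same strand as a protein-coding locus and overlap its span. They are stretches that the read assembly kept apart from the known gene around or beside them. A locus was taken where the deposited table gives it no transcript type, gives it a strand and places at least 1 base of its span within a coding locus on that strand. Of 43499 loci, 20536 were unannotated and 11956 of these had a strand. The rule found 3233 members, and each was paired with the coding locus it overlapped most, which gave 2002 coding loci. A further 7157 unannotated loci overlapped a coding locus on the opposite strand only, and 4212 without a strand overlapped one. Both sets are used below for comparison.

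Transcripts on the same strand as a gene can be unspliced or partly spliced precursor RNA, extended or alternative ends of the mRNA, or separate long non-coding RNA that starts within an intron. Short-read assembly places such stretches in a locus of their own when no junction or continuous coverage joins them to the gene. Because they share a strand and a span with the gene, strand-specific sequencing alone cannot assign every read to 1 of the 2.

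RNA came from the ovaries of 10 gilts after the surface follicles had been removed, with 1 library for each pig. All gilts shared a genetic background and a birth date, and all were fed altrenogest, a progestin that holds back oestrus, at a daily dose of 20 mg that began at an age of 210 days and lasted 18 days. After 2 days without it, 5 gilts received 1000 IU of rpFSH, a recombinant pig follicle-stimulating hormone made in CHO cells, and 5 control gilts received saline. The labels give an age of 234 days for every pig and call the control pigs untreated. The comparison asks how the ovarian transcripts of rpFSH-treated gilts differ from those of control gilts.

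The libraries held 64873797 to 75114003 counts. Values per pig are given as CPM, the counts of a locus scaled to a library of 1000000, in which 3 counts, taken as the floor, were worth 0.0399 to 0.0462 CPM, which covers counting error only. In bulk ovary, fewer cells of a type and less RNA per cell cannot be told apart. Ovarian markers were present in every pig, since summed FPKM was 3.41 to 81.3 for 4 granulosa loci and 4.26 to 21.6 for 6 oocyte loci. Control pigs 2 and 5 stood apart in 7 multiciliated epithelium markers, at 27.4 and 52.3 FPKM against 1.40 to 3.98 in the other pigs. Control pig 2 and rpFSH pig 1 stood apart in 4 theca and luteal markers, at 2296 and 1260 FPKM against 12.9 to 344. Smooth muscle markers in control pig 5 came to 1210 FPKM against 49.7 to 337 in the others. For the named members, most fold changes that rest mainly on these pigs are given with and without them.

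Most members lay wholly within a gene. The span of 2636 members, or 81.5%, was inside that of the coding locus, while 273 reached past its 5′ end, 177 past its 3′ end and 147 past both ends. Overlaps ran from 123 bases of MSTRG.9549, which is 0.0181% of its span of 679702 bases, to all 410512 bases of MSTRG.7514 in RBMS3. At least 50% of the member was covered in 2864, under 50% in 369 and under 10% in 86. There were 166 members that overlapped more than 1 coding locus on their strand, and 17 were tied for the largest overlap. The name column of the table gave 2770 members the name of the coding locus itself, so a search of the table by gene symbol finds both. Neither exon positions nor a genome sequence was used here, so a member inside a gene cannot be called intronic or exonic, and no member sequence is shown.

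The members ranged from stretches read over their whole span to loci read over a small share of it. The count and the FPKM of a locus together give the length over which its reads were counted, since FPKM divides by length. In 1701 strandless loci, whose length is their span, the 2 agreed to a 99th percentile of 0.00808 on the log2 scale. For 3148 members with at least 20 counts in any pig, the implied length had a median of 3902 bases, or 71.1% of the span. It was at least 95% of the span in 953 members, or 30.3%, under 20% in 886, or 28.1%, and between these in the other 1309. Of the members inside a gene 36.3% filled at least 95% of their span, whereas the median share was 5.52% for those past the 5′ end, 4.20% past the 3′ end and 3.71% past both. For comparison, 57.7% of opposite-strand loci filled at least 95% of their span, as did all strandless loci.

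**Figure D1:**
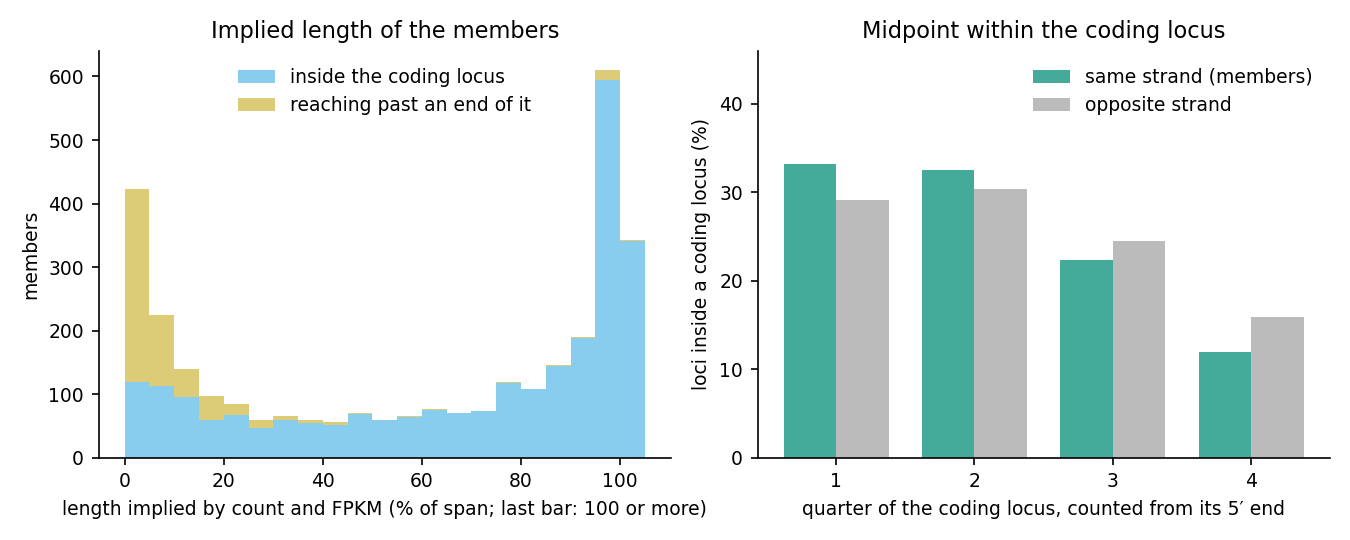
Left, number of members by the length that count and FPKM imply, as percent of the locus span, stacked for members inside the coding locus and members that reach past an end of it. Right, percent of loci inside a coding locus whose midpoint lies in each of 4 equal parts of it from the 5′ end, for members and opposite-strand loci. Members gather at both ends of the length axis, those past an end almost all at the low end, and 33.2% of the members inside a gene lie in its first part against 12% in its last.

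Members inside a gene lay toward its start. With the coding locus divided into 4 equal parts from its 5′ end, midpoints fell in the first part in 875, or 33.2%, in the next in 858, in the one after in 587 and in the last in 316, or 12%. Opposite-strand loci leaned the same way, with 29.1% in the first and 15.9% in the last part. The coding loci were long, with a median span of 107184 bases against 20734 for all 19972 coding loci. They were also well expressed, at a median of 3.76 FPKM over the mean of the pigs against 1.6. A single member was held by 1334 of them, 2 members by 368 and 3 or more by 300.

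The largest clusters of members sat in very long genes. AUTS2, a transcription regulator known from neural development, is given at chr3:13564279-14796788 (Sscrofa11.1) and held 14 members with mean levels of 0.442 to 5.62 FPKM, around its own 3.72 FPKM. The locus at chr3:63205017-64397255, named only by Ensembl gene numbers, held 12 members. DAB1, an adaptor of reelin signalling, held 11 members at chr6:154156650-155374399. In these 3 genes the tested members lay on 1 side of 0, although none was called by the test described further on. Of the next 3 genes by number of members this was so for PRKG1 (5 of 5 above 0) but not for NAV2 (6 of 8) or MSI2 (6 of 7). The log2 fold changes lay between 0.02 and 1.46 for all 14 AUTS2 members (AUTS2 itself 0.35, edgeR adjusted p = 0.960), with P under 0.05 for 2, and between 0.04 and 0.97 for the 8 tested DAB1 members. They lay between -0.69 and -0.02 for the 11 tested members of the chromosome 3 locus. Members of 1 gene share their source, and several AUTS2 spans overlap each other, so they are not independent of each other.

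Few members coincide with a known separate gene. In RefSeq, which gives no strand in the table used, 37 members, or 1.14%, shared at least 50% of both spans with a lncRNA, and 241, or 7.45%, touched one. In another 83, or 2.57%, a protein-coding gene other than the paired one shared at least 50% of both spans, which was so for 0.978% of opposite-strand and 0.0712% of strandless loci. An annotated locus of another kind lay within 41 members on the same strand, among them snRNA in 16 and snoRNA in 8. MSTRG.27201 within the ZNF146 locus, for example, covers much of ZNF565, a zinc finger gene, and MSTRG.16787 beside DOCK4 covers much of ZNF277.

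Members were expressed at less than the level of their gene. Per length, the median of the members was 1.62 ± 0.149 FPKM in the control group and 1.63 ± 0.0871 FPKM in the rpFSH group (SD, n = 5 each). The pigs ran from 1.38 to 1.76 and from 1.5 to 1.72 FPKM, so the groups overlapped. Relative to the coding locus, the median ratio of FPKM was 0.416 ± 0.0325 in the control group, between 0.366 and 0.451, and 0.432 ± 0.0252 in the rpFSH group, between 0.403 and 0.469. Members held 5.10, 4.16, 5.57, 5.20 and 5.06% of all counts in control pigs 1 to 5 and 4.96, 5.30, 5.62, 5.04 and 5.43% in rpFSH pigs 1 to 5. Control pig 2, which stands apart in theca and luteal markers, was lowest in all of these measures. Opposite-strand loci held 12.2 to 16.6% of the counts, also least in control pig 2. Between 171 and 190 members had no count in a given pig.

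**Figure D2:**
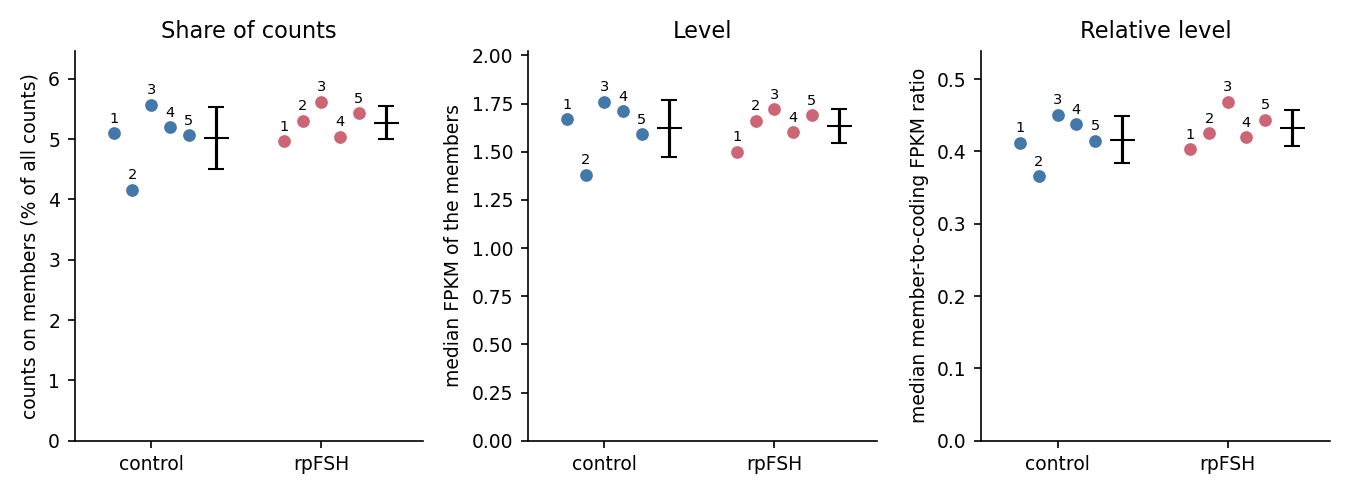
Share of all counts on the members in percent, median FPKM of the members and median ratio of member to coding FPKM, by group. Points are pigs with their replicate number, and the bar at the right of each group is its mean with SD (n = 5). The groups overlap in all 3 panels, and control pig 2 is the lowest point in each.

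The relative level was highest in the members read over nearly their whole span, and the other length classes were alike. Members that filled at least 95% of their span had a median ratio to the coding locus of 0.634 and a median of 1.83 FPKM. Those whose length was under 20% of the span had a ratio of 0.379 and 1.53 FPKM, and those between had 0.367 and 1.65 FPKM. By strand, the median ratio was 0.430 for the members over the mean of the pigs, 0.409 for opposite-strand loci and 0.634 for strandless loci.

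The 5 members of highest mean FPKM were in most cases led by 1 or a few pigs. MSTRG.17493 (chr2:8928994-9117816, spanning GNG3, a G protein gamma subunit) had 39587 counts in rpFSH pig 2 and none in any other pig, at a mean of 161 FPKM over an implied 280 bases. It was called higher by the test described further on, at an exact permutation p of 1, and without rpFSH pig 2 nothing of it is left (log2 fold change 0.00). MSTRG.30231 at the histone locus HIST1H2BN had a mean of 54.0 FPKM over 271 bases. Its CPM was 52.6, 3.77, 33.1, 22.7 and 5.63 in control pigs 1 to 5 and 15.5, 4.73, 2.57, 12.5 and 18.4 in rpFSH pigs, so the groups overlapped. MSTRG.23875, which reaches past the 3′ end of ZNF697, was highest in rpFSH pig 1 (619 CPM) and control pig 2 (218 CPM) against 4.22 to 69.7 CPM elsewhere, the same pigs that stood apart in theca and luteal markers, whose part in this was not tested. ZNF697 itself lay between 14.7 and 32.5 CPM in all pigs. The member's log2 fold change of 1.43 was not called, but was 3.71 and called without control pig 2, and -0.98 without rpFSH pig 1. MSTRG.30192 over ZNF322 had a mean of 40.2 FPKM, between 1.99 and 30.2 CPM. MSTRG.2201 in KLHDC2, at chr1:179656229-179686690, had 291 CPM in control pig 2 and 1.71 to 27.1 CPM in the other pigs, while KLHDC2 stayed between 27.6 and 40.1 CPM. Its log2 fold change of -2.74 was not called, was -0.15 without control pig 2, and passed the limits without control pig 3, 4 or 5 or rpFSH pig 4 (-3.27 at the lowest).

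A number of members were all or none. The mean count was at least 20 in 3055 members, and in 99 of these, or 3.24%, 1 pig held over 50% of the summed CPM. In 19 it held over 90%. No count in at least 1 pig and 100 or more in another was found in 221 members, or 6.84%. These limits were set with the values in view. It was found in 5.76% of opposite-strand, 1.71% of strandless and 1.94% of all coding loci. The coding locus was itself at 0 in some pig for only 4 of the 221. Zeros occurred in pigs of both groups for 134 of them, in all control pigs but not all rpFSH pigs for 20, and in all rpFSH pigs but not all control pigs for 10. The pig that held over 50% was most often rpFSH pig 1 (19 members) and control pig 5 (16 members), and least often control pig 4 (3 members).

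Between rpFSH and control pigs, few members differed, and none after adjustment in the main test. A locus was called, with the limits of the study, at an unadjusted P under 0.05 and a log2 fold change above 1 or below -1, here by edgeR's quasi-likelihood test on the counts of every locus whose FPKM averaged 0.1 or more. Of 3048 members tested, 86 were called, or 2.82%, against 3.59% of all 36339 loci tested. The 42 members called higher were 1.38%, beside 1.09% of all loci, and the 44 called lower were 1.44%, beside 2.50%. P was under 0.05 in 173 members, the smallest edgeR adjusted p was 0.848 and 0 members were under 0.05 after Benjamini-Hochberg adjustment. DESeq2 gave 13 of the 3048 members, beside 218 of all 36339 loci, and limma on FPKM gave 0 of either. The log2 fold changes of these 13 in DESeq2 reached -25.87 and 25.99, sizes that arise where a group is at 0 in most or all pigs. Without control pig 2 the edgeR test gave 1, MSTRG.18201 at GATAD2A. DESeq2 gave no P to 75 members. The coding loci of the members were called in 31 of 1955 cases, or 1.59%, 26 of them lower. The remaining 185 members were too low to be tested.

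The calls of members were mostly not calls of the gene. In 16 of the 86 called members the coding locus was called as well, and in all 16 in the same direction. Among all tested coding loci that hold a member 1.59% were called, a far smaller share. In 55 the coding locus was within 0.5 of no change on the log2 scale, a share that was not worked out for the members not called. The ratio of member to gene, tested further on, was called in 21 of the 86. For most called members a difference from the gene was therefore not called. Of the 86 called members 37 were all or none in the sense above. In the plot of member against gene, most called members stand near the vertical axis, where the fold change of the gene is small. A smaller group runs along the lower diagonal. The groups of pigs did not overlap in CPM in 8 members higher and 12 lower in rpFSH, or 0.262% and 0.394% of those tested, against 0.283% and 0.454% of all tested loci.

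**Figure D3:**
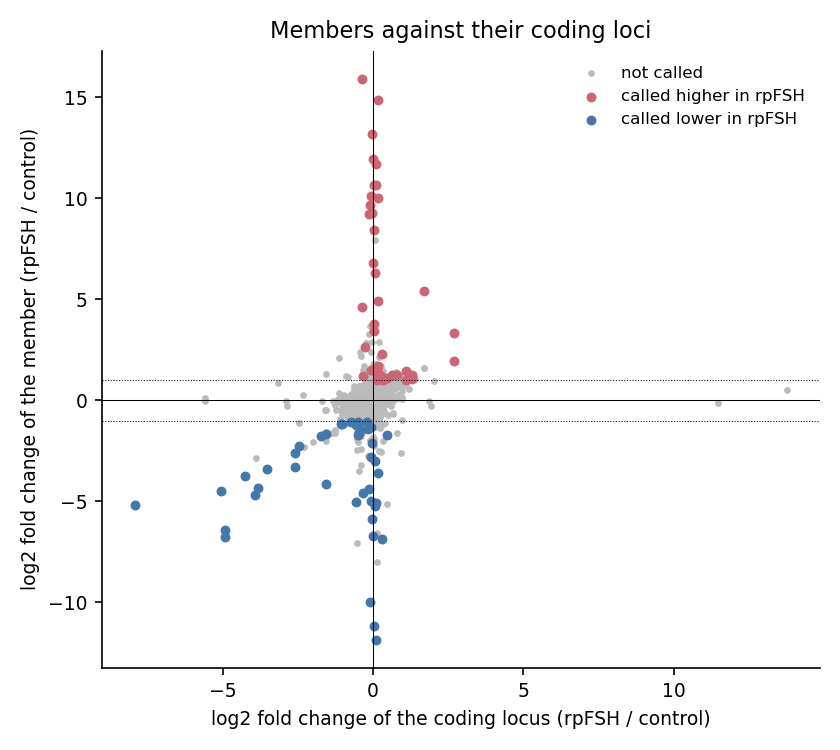
Each point is a tested member, with the log2 fold change of its coding locus (rpFSH over control) on the horizontal axis and its own on the vertical axis, from the edgeR fit; dotted lines mark 1 and -1. Of the 86 called members (red higher, blue lower in rpFSH) 55 have a coding locus within 0.5 of 0, and the 16 whose coding locus was called share its direction. The share within 0.5 was not worked out for the members not called.

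Among the members called higher, several were silent in all control pigs. MSTRG.31740 lies at chr7:95528755-95545501 on the plus strand inside RGS6, a regulator of G protein signalling, and fills 99.8% of its span. Its CPM was 0 in all 5 control pigs and in rpFSH pigs 1 and 2, and 37.0, 28.4 and 18.6 in rpFSH pigs 3 to 5. The group mean of 16.8 ± 16.7 CPM (SD, n = 5) was at least 397-fold above the floor of 3 counts per control library. RGS6 itself lay between 41.4 and 105 CPM in all pigs (log2 fold change -0.03, edgeR adjusted p = 0.999). MSTRG.13393 in BAZ2B, a bromodomain protein, had 9.08, 15.6 and 3.51 CPM in rpFSH pigs 1, 2 and 4 and 0 in the others, at least 133-fold above the floor. MSTRG.2127 in MYO9A, an unconventional myosin, had 3.91, 5.89 and 4.47 CPM in rpFSH pigs 2, 3 and 5 and 0 elsewhere, at least 67.5-fold above it. MSTRG.5618, in a coding locus named for the tetraspanin TSPAN10, was at 0 in the control pigs and at 4.45, 2.87, 0.0462, 0 and 1.57 CPM in rpFSH pigs 1 to 5, at least 42.2-fold above it. In each of these 4 members at least 1 rpFSH pig was as silent as the control pigs, and the exact two-sided permutation p was 0.167 for the first 3 and 0.0476 for MSTRG.5618. Without its highest pig the bound was 74.4-fold for MSTRG.13393 (rpFSH pig 2) and 26.5-fold for MSTRG.5618 (rpFSH pig 1).

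The other members called higher were led by 1 or a few rpFSH pigs. MSTRG.27270 lies inside ACTN4, an actin cross-linker, at chr6:47498934-47515069 and fills its whole span. It had 0, 0.591, 0.384, 0 and 0 CPM in control pigs 1 to 5 and 0, 35.3, 51.1, 2.92 and 24.9 CPM in rpFSH pigs 1 to 5, so that 4 of 5 rpFSH pigs exceeded all control pigs (0.195 ± 0.277 against 22.8 ± 21.7 CPM, SD, n = 5, exact permutation p = 0.0476). ACTN4 had a log2 fold change of 0.00. The adjacent member MSTRG.27271 in the same gene overlaps a RefSeq lncRNA and stood at 68.4 ± 31.3 and 82.8 ± 25.7 CPM, and was not called (edgeR adjusted p = 0.999). MSTRG.7124 at the 5′ end of MAP2K4, a kinase upstream of JNK, had 2 counts over all control pigs and 29.4 CPM in rpFSH pig 3, with 1.22 CPM in pig 5 and at most 0.0434 in the others. Summed over each group and scaled by the group's total counts, the ratio was 1009 (95% counting interval 279 to 8337). That interval covers counting error only and not the spread between pigs, for which the exact permutation p was 0.167. rpFSH pig 3 held 95.8% of the summed CPM. Without rpFSH pig 3 the log2 fold change of 9.66 was 5.4. MSTRG.9652 past the 5′ end of USF3, a transcription factor gene, had 6.91 CPM in rpFSH pig 3, 0.0867 to 0.287 CPM in the other rpFSH pigs and at most 0.0893 CPM in the control pigs, and its log2 fold change of 6.31 was 3.23 without rpFSH pig 3. MSTRG.23821 at BCL9, a beta-catenin cofactor, had 107 CPM in rpFSH pig 1 and a log2 fold change of 4.91, which without that pig came to 1.76 and was no longer called. MSTRG.7525 in RBMS3, an RNA-binding protein, had 2.35 to 4.30 CPM in control pigs and 9.38, 13.5, 4.42, 25.5 and 4.06 CPM in rpFSH pigs 1 to 5. MSTRG.28096 in the transcription activator CAMTA1 moved least, from 0.589 ± 0.193 to 1.24 ± 0.564 CPM, and fell under the fold limit (0.84 to 0.99) without control pig 2, rpFSH pig 2 or rpFSH pig 3.

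Among the members called lower, several were nearly silent in most rpFSH pigs, MSTRG.27129 and MSTRG.9514 among them. MSTRG.27129 at chr6:43976455-43980398 lies within a coding locus that joins KIAA0355 and GPI, a glycolytic enzyme, and fills 99.4% of its span. Its counts were 636, 16, 776, 483 and 479 in control pigs 1 to 5 and 4, 16, 0, 0 and 0 in rpFSH pigs 1 to 5, or 6.90 ± 4.38 against 0.0538 ± 0.0928 CPM. The groups did not overlap, with an exact permutation p of 0.00794, the smallest that this design gives, but control pig 2 at 0.215 CPM stood only just above rpFSH pig 2 at 0.214 CPM. The coding locus had a log2 fold change of 0.31 (edgeR adjusted p = 0.999). MSTRG.9514 in IGSF11, a cell adhesion gene, at chr13:141163475-141172934, had 4.35, 0.510, 2.61, 7.78 and 1.26 CPM in control pigs, 0.478 CPM in rpFSH pig 1 and 0 in the other 4 (exact permutation p = 0.00794). IGSF11 had a log2 fold change of -0.06. Both calls held under all 20 alternatives that gave a P.

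Control pig 2 went against its group in other members called lower. MSTRG.18201, past the 5′ end of GATAD2A, a chromatin remodelling subunit, had 6.31, 0.430, 4.94, 5.87 and 5.41 CPM in control pigs 1 to 5 and 0.437 to 0.786 CPM in rpFSH pigs. Its log2 fold change was -2.82 (edgeR adjusted p = 0.848), and without control pig 2 it was -3.11 (edgeR adjusted p = 0.0143), a fit that leaves out the 1 control pig at the rpFSH level and so adds no support. MSTRG.30945 in ZSCAN2, a zinc finger gene, had 13.2, 4.87 and 8.79 CPM in control pigs 1, 4 and 5, 0.134 and 0.261 CPM in pigs 2 and 3, and 0 to 0.202 CPM in rpFSH pigs. GATAD2A and ZSCAN2 had log2 fold changes of -0.06 and 0.08.

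A further set was lower in most rpFSH pigs, by smaller folds than the members above. MSTRG.4503 in NEBL, an actin-binding protein, at chr10:53824755-53864545, had 1.08 to 2.18 CPM in control pigs and 0.478 to 1.09 CPM in rpFSH pigs (1.52 ± 0.536 against 0.670 ± 0.267, SD, n = 5). The log2 fold change was -1.17 for the member and -1.03 for NEBL, both of which were called (edgeR adjusted p = 0.848 each). MSTRG.11858 in RASSF4, a Ras-association protein, had 1.37 to 3.74 CPM in control and 0.705 to 1.24 CPM in rpFSH pigs, with no overlap. Without control pig 3 its log2 fold change was -0.94, under the limit. MSTRG.25803 in PDZRN4 had 8.16 to 18.9 CPM in control and 2.89 to 7.81 CPM in rpFSH pigs, with no overlap, and without control pig 2 its value was -0.90. MSTRG.13461, in a coding locus that joins ABCB11 and LRP2, had 0.38 to 1.83 CPM in control and 0.109 to 0.402 CPM in rpFSH pigs, with a log2 fold change of -1.78.

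**Figure D4:**
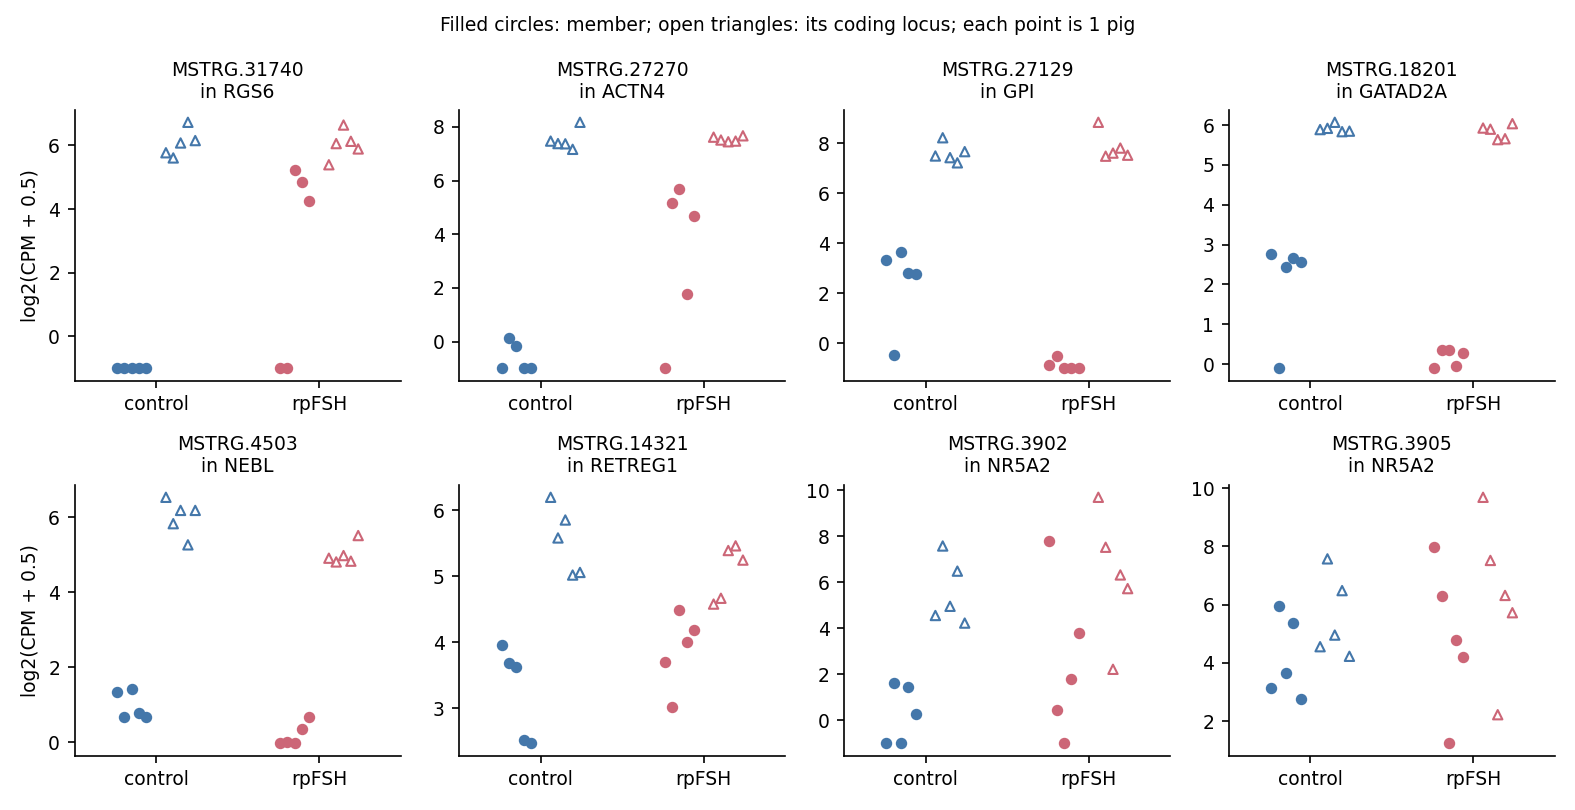
log2(CPM + 0.5) of 8 members (filled circles) and their coding loci (open triangles) in control (blue) and rpFSH (red) pigs, each point 1 pig. MSTRG.31740 and MSTRG.27270 are on in some rpFSH pigs while RGS6 and ACTN4 stay level, MSTRG.27129 and MSTRG.18201 are lower in rpFSH pigs and in control pig 2 than in the other control pigs, and MSTRG.3905 keeps the spacing of NR5A2.

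Several members in ciliary genes were higher in the control pigs that held multiciliated epithelium markers. The list of 42 cilium and axoneme genes had 8 members in 6 genes, and 4 of the 8 were called lower, 0 higher, where 2.50% and 1.09% of all loci were. MSTRG.26011 in CFAP54, a ciliary central apparatus protein, had 6.66 and 9.64 CPM in control pigs 2 and 5 and 0 to 0.384 CPM in all others, and CFAP54 had 74.2 and 136 CPM against 0.546 to 6.83. Without those pigs the log2 fold change of -4.69 became -1.05. MSTRG.14408 in SPEF2, also axonemal, went from -1.67 to -0.46, and MSTRG.8937 in WDR49 from -5.19 to 0.08. MSTRG.6911 in TEKT1, a tektin, is named after its values were seen and had 184 and 396 counts in the same pigs and 0 to 22 elsewhere. Its log2 fold change of -3.76 was 0.19 without both, and its call was also lost without either of them or without any 1 of the rpFSH pigs (-4.26 to -2.62). MSTRG.8421 in ATP2B2, a plasma membrane calcium pump, showed the same pigs, at 57.4 and 223 CPM against 0.0546 to 2.20, and went from -6.40 to -0.64. None of these 5 members was called without control pigs 2 and 5. MSTRG.14003 and MSTRG.14005 in CFAP65 did not share this pattern, at 2.79 to 5.28 and 15.8 to 28.6 CPM in all pigs, while CFAP65 itself was at 22.8 and 54.9 CPM in control pigs 2 and 5 and at most 1.17 elsewhere. MSTRG.12650 in CFAP46, named after its values were seen, did not separate these pigs either. It had 121 and 216 counts in control pigs 2 and 5, 164 in rpFSH pig 1 and 31 to 89 elsewhere, and was not called (log2 fold change -0.47). The part of the epithelium in these values was not tested.

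In the ovarian hormone pathways the members followed the gene across pigs to different degrees. The correlation described further on passed its adjusted limit in all 6 steroid synthesis pairs, in 12 of 24 hormone receptor pairs and in 2 of 21 follicle growth factor pairs, against 30.0% of all overlapping pairs. Pairs that share a gene are not independent, and the 6 lie in 3 genes. Of 23 steroid synthesis genes 3 held members, 6 in all, of which 1 was called higher and none lower, beside 1.09% and 2.50% of all loci. NR5A2, a nuclear receptor that controls steroidogenic genes, held 3. MSTRG.3905 (chr10:22752985-22760380) had 8.28, 60.8, 12.1, 41.0 and 6.31 CPM in control and 255, 77.8, 1.85, 26.8 and 18.1 CPM in rpFSH pigs, and MSTRG.3908 (chr10:22803603-22832506) had 9.99, 42.8, 14.1, 39.0 and 5.48 CPM and 218, 70.1, 1.20, 25.8 and 16.0 CPM. Both followed NR5A2, at 23.0, 190, 30.5, 88.9 and 18.2 CPM and 825, 183, 4.15, 79.2 and 52.3 CPM. Pearson's r was 0.996 and 0.988 over 10 pigs (permutation p = 1e-05, the smallest possible, adjusted 0.000894 over all pairs; rho 0.988 and 0.988, adjusted 0.00263) and 0.991 and 0.963 without the 2 pigs farthest from the median. Neither was called (log2 fold change 1.58 and 1.6, edgeR adjusted p = 0.964 and 0.956), nor was NR5A2 (1.71, edgeR adjusted p = 0.961). rpFSH pig 1 held 50.2 and 49.3% of the summed CPM of MSTRG.3905 and MSTRG.3908. With 1 pig left out their log2 fold changes fell as low as 0.27 and 0.35. For NR5A2 no such fit is given here.

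MSTRG.3902, at chr10:22703120-22773335, starts upstream of NR5A2 and overlaps it over 64.8% of its own span, with an implied 5460 bases in 7.78% of that span. Its counts were 0, 195, 0, 163 and 54 in control pigs 1 to 5 and 16075, 65, 0, 204 and 917 in rpFSH pigs 1 to 5. It was called higher (log2 fold change 5.43, edgeR adjusted p = 0.848), with 1.11 ± 1.24 against 47.3 ± 96.4 CPM (SD, n = 5, exact permutation p = 0.167). rpFSH pig 1, which also held the highest NR5A2 level and high theca and luteal markers, carried most of it. Without that pig the log2 fold change was 1.89 and not called, and the call was also lost in leaving out control pig 1, 3, 4 or 5, with values of 5.11 to 5.79. Its r with NR5A2 was 0.765 (permutation p = 0.0106, adjusted 0.0394; rho 0.730, adjusted 0.0846) and 0.425 without the 2 farthest pigs.

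MSTRG.10614 in SCARB1, the receptor that takes up cholesterol from HDL, had 33.1 CPM in control pig 2, 36.0 CPM in rpFSH pig 1, 10.4 CPM in rpFSH pig 4 and 2.47 to 3.48 CPM in all others. SCARB1 was highest in the same 3 pigs at 3309, 2280 and 536 CPM against 78.4 to 142 CPM, so the member was high in pigs of both groups. Its log2 fold change of 0.26 was not called, but was 2.00 and called without control pig 2, and -1.01 without rpFSH pig 1. MSTRG.1462 and MSTRG.1463 in CYP19A1, the aromatase gene, are named after their values were seen. They were highest in rpFSH pig 2, at 1345 and 587 counts against 49 to 645 and 13 to 240 counts in the other pigs. Their r with CYP19A1 was 0.746 and 0.767 (permutation p adjusted 0.0431 and 0.0339). Without the 2 pigs farthest from the median of CYP19A1 it was 0.457 and 0.567.

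The list of 27 hormone receptors and FSH signalling genes was the one with most members, 26 in 15 genes. Of the 24 tested, 2 were called lower and none higher, beside 2.50% and 1.09% of all loci, both in PRLR, the prolactin receptor. MSTRG.14404 in PRLR had 18.5, 41.2, 8.84, 0.936 and 0.852 CPM in control and 1.27, 2.63, 6.09, 1.78 and 0.216 CPM in rpFSH pigs, and MSTRG.14405 had 3.17, 0.591, 1.69, 0 and 0.546 CPM and 0.0546, 0.161, 0.385, 0 and 0 CPM. The groups overlapped in both. Their log2 fold changes of -2.61 and -3.29 stood beside -2.58 for PRLR (edgeR adjusted p = 0.848). MSTRG.14404 lost its call without control pig 1, 2 or 3 or rpFSH pig 1, 2, 4 or 5 (-2.75 to -1.57, nearest to 0 without control pig 2). MSTRG.14405 lost it without control pig 1 or 3 or rpFSH pig 1, 2, 4 or 5 (-3.44 to -2.54). Members of ADCY9, IGF1R and PDE8A were among the most counted here. MSTRG.1770 in IGF1R had 0.119 CPM in control pig 1 against 52.6 to 107 CPM in the other control pigs and 5.26 to 99.2 CPM in rpFSH pigs, while IGF1R lay between 358 and 1013 CPM. MSTRG.20932 in ADCY9 stood at 66.5 ± 20.1 and 66.5 ± 14.7 CPM, and MSTRG.30930 in PDE8A stood at 38.6 ± 7.44 and 50.1 ± 9.69 CPM.

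Follicle growth factor genes, 41 in all, had 24 members in 9 genes. Of 21 tested, 1 was called lower and none higher, beside 2.50% and 1.09% of all loci. This was MSTRG.24281 in TGFBR3, named after its values were seen, with 65 counts in control pig 1 and 0 to 4 counts in every other pig. Without control pig 1 its log2 fold change of -4.38 was -1.69 and not called. MSTRG.32651 at KIT, the stem cell factor receptor, had 46.9 to 60.1 CPM in control and 29.1 to 48.7 CPM in rpFSH pigs (log2 fold change -0.60, edgeR adjusted p = 0.848), which is under the fold limit. MSTRG.2018 in SMAD6, an inhibitory SMAD, exceeded its gene per length, at a mean of 1.72 against 1.3 FPKM. MSTRG.11795 in BMPR1A and MSTRG.17099 in the locus joining GLI3 and INHBA were at 48.7 ± 11.4 and 43.9 ± 5.81 and at 31.6 ± 11.4 and 36.1 ± 4.82 CPM.

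The other lists held few members, again beside 1.09% of all loci called higher and 2.50% lower. Extracellular matrix genes (40) had 4 members in 4 genes, of which 3 were tested and none called. Smooth muscle and actin genes (26) had 13 in 7 genes with 11 tested and 1 called higher, the ACTN4 member given above. MSTRG.4252 in SVIL, an actin-binding protein, had 9.9 to 26.6 CPM in control and 7.84 to 32.5 CPM in rpFSH pigs, and MSTRG.35942 in the dystrophin gene DMD had 17.9 to 48.9 and 16.7 to 51.8 CPM. Immune genes (26) had 4 in 3 genes and none called, and splicing genes (38) had 1, MSTRG.31755 at RBM25, at 3.65 ± 0.702 and 4.02 ± 0.310 CPM. Only 12% of that member overlaps the RBM25 locus, and in RefSeq it shares at least 50% of both spans with ZFYVE1. MSTRG.8210 in ADAMTS9, a matrix protease, was as high as its gene at a mean of 6.73 against 6.69 FPKM. MSTRG.14446 in FYB1, an adaptor of immune cells, was above it at 2.05 against 0.454 FPKM. MSTRG.6219, in a coding locus that joins CBX1 and SKAP1, held 1.56 to 3.39 CPM in all pigs while that locus ran from 12.3 to 57.5 CPM. In a list of 13 genes drawn from the study, 5 held 12 members, 1 called higher and 3 lower, against those 1.09% and 2.50%. The study drew on differential expression in these same pigs, so the choice of list favours calls and these add no support. The list includes PRLR, for which the study's text gives only the term prolactin receptor activity. It leaves out CYP19A1, which the study's discussion names and whose members were not called. The 12 are the members of NR5A2, PRLR and WDR49 above, with 2 in PHF21A and 4 in DOCK4 that were not called. MSTRG.16794 in DOCK4 had 30.8 CPM in control pig 5 and 0.698 to 2.90 CPM elsewhere. Its log2 fold change of -2.0 was not called, was 0.19 without control pig 5, and passed the limits without control pig 1, 2, 3 or 4 (-2.29 at the lowest).

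The ratio of a member to its gene within a pig does not depend on library scaling and tests whether the 2 changed by different amounts. Of 3053 member pairs, 59 were called by limma, or 1.93%, against 1.74% of all 13941 overlapping pairs. The member gained on its gene in rpFSH pigs in 36, or 1.18% beside 1.09% of all pairs, and lost in 23, or 0.753% beside 0.646%. None passed adjustment (smallest limma adjusted p = 0.586), with P under 0.05 in 178. Without control pig 2, control pig 5 or rpFSH pig 1 there was 1 each, MSTRG.18201, MSTRG.9866 and MSTRG.9514, in each of which the pig left out was the one nearest to the other group, so these fits add no support. Of opposite-strand and strandless pairs 1.28% and 2.35% were called.

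The pairs in which a member gained on its gene include the member at USF3 given above, by 4.84 ± 1.18 on the log2 scale, and 4 others. In RETREG1, a receptor of endoplasmic reticulum autophagy, MSTRG.14321 (chr16:5753854-5760924) had 15, 12.4, 11.8, 5.22 and 5.05 CPM in control and 12.5, 7.59, 21.9, 15.6 and 17.8 CPM in rpFSH pigs, while RETREG1 had 31.9 to 72.7 and 23.4 to 43.5 CPM. The ratio differed by 1.14 ± 0.21 on the log2 scale (SE, limma adjusted p = 0.586). In CMBL, a hydrolase, MSTRG.15112 had 16.1 ± 4.51 and 19.2 ± 6.38 CPM while CMBL had 10.3 to 15.7 CPM in control and 4.89 to 8.38 CPM in rpFSH pigs, without overlap, and the ratio differed by 1.24 ± 0.27 (limma adjusted p = 0.673). MSTRG.27201 at ZNF146 had 9.85 to 20.0 CPM in control and 21.5 to 27.4 CPM in rpFSH pigs, without overlap, with ZNF146 at 77.5 to 107 and 68.1 to 95.9 CPM and a ratio difference of 1.02 ± 0.23. MSTRG.27201 lost this call under the fold limit, at 0.85 at the least, without control pig 3 or 4 or rpFSH pig 1 or 3. The call was also lost, at 0.98, with FPKM + 0.1. This member shares at least 50% of both spans with ZNF565 in RefSeq, so its ratio may set 1 gene against another. MSTRG.17867 in DCDC1 gained 2.87 ± 0.66, with DCDC1 at 12.4 and 28.1 CPM in control pigs 2 and 5 and 2.39 to 4.26 CPM in the others, and by 2.70 without those pigs.

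Members lost against their gene in another set. The member of the GPI locus, MSTRG.27129, lost against it (-7.75 ± 1.40 on the log2 scale, limma adjusted p = 0.586) and MSTRG.9514 lost against IGSF11 (-6.67 ± 1.19). Most rpFSH counts are 0 here, so the size rests on the constant added: with FPKM + 0.1 in place of counts + 0.5 the differences were -3.61 and -1.27, both still called. MSTRG.9866 in ROBO2, a receptor for Slit proteins, was too low in FPKM for the first test, with 46, 47, 452, 76 and 0 counts in control pigs and none in rpFSH pigs, at least 43.4-fold above the floor, or 13.7-fold without control pig 3. Its ratio difference of -5.84 (limma adjusted p = 0.685) was -0.25 and not called with FPKM + 0.1. ROBO2 itself was at 201 to 540 and 229 to 745 CPM. MSTRG.9288 in FGF12, an intracellular member of the fibroblast growth factor family, had 11.8 to 59.7 CPM in control and 6.36 to 57.0 CPM in rpFSH pigs, against 122 to 474 and 140 to 853 CPM of FGF12 (-2.16 ± 0.54). MSTRG.35558 in the phosphatase gene PTPN14 had 1.73 to 5.11 and 1.35 to 3.50 CPM, and its difference of -1.13 ± 0.32 was -0.99 without rpFSH pig 4, the pig in which PTPN14 was highest at 205 CPM.

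Across the pigs the members tended to follow their genes, and so did the other overlapping loci. Over 3053 pairs Pearson's r of log2(CPM + 0.5) had a median of 0.504, with quartiles of 0.163 and 0.771, and was positive in 2549, or 83.5%. It passed an adjusted p of 0.05 in 904 pairs, or 29.6%, against 30.0% of all 13941 pairs, by 100000 permutations per pair. Of these, 12 were negative. Spearman's rho had a median of 0.467 and passed in 570. The median of r was 0.570 for opposite-strand and 0.460 for strandless pairs. With group means removed the median for the members was 0.521, without control pigs 2 and 5 it was 0.490, and without the 2 pigs farthest from the median of each gene 0.401. Pairs that share a gene are not independent, and reads in the overlap may have been counted in either locus.

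**Figure D5:**
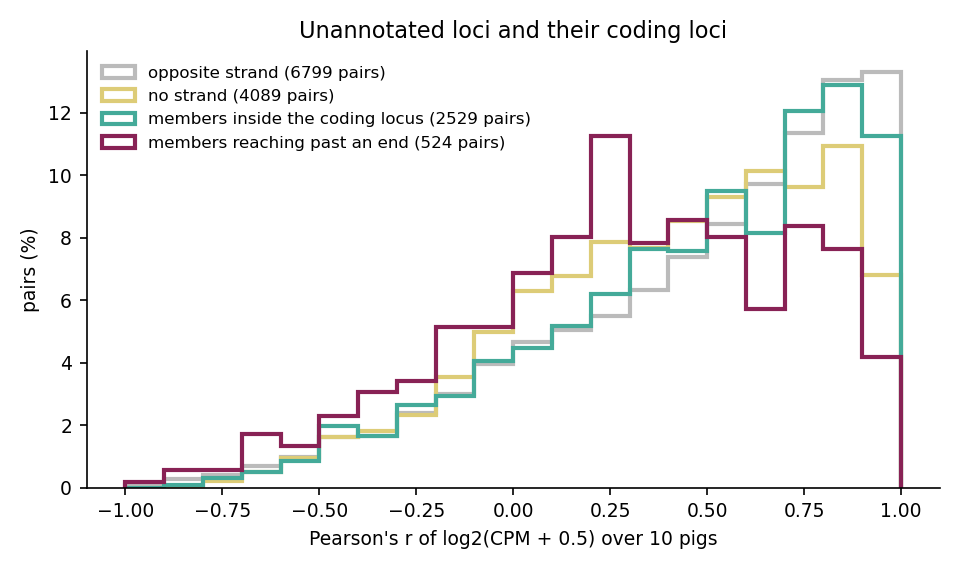
Percent of pairs by Pearson's r between an unannotated locus and its coding locus over 10 pigs, on log2(CPM + 0.5). Members inside the gene (2529 pairs, median 0.539) lie close to opposite-strand loci (6799 pairs, median 0.570), while members that reach past an end (524 pairs, median 0.307) lie further to the left.

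Position and length went with this relation. Members inside the gene had a median r of 0.539 and passed in 32.3%, and those that reached past an end had 0.307 and passed in 16.8%. Members that filled at least 95% of their span had 0.576 and passed in 35.7%, and those under 20% had 0.399 and passed in 22.0%. r was above 0.9 in 307 member pairs. In the genes with most members the median r was 0.821 for AUTS2, 0.968 for the chromosome 3 locus and 0.826 for DAB1, and the lowest AUTS2 member, MSTRG.20406, had -0.00332 although it lies inside that gene at chr3:13691094-13699682.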

How the data were processed

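The authors deposited 1 table with a count and an FPKM per locus and pig, with 0.0001 as the lowest FPKM. The methods name Cutadapt, HISAT2, StringTie and Ballgown, and the submitters' processing notes name HISAT2 2.0, Bowtie 0.12.2, StringTie 1.3.0 and Sscrofa11.1. How the authors made the counts, and whether they used strand, is not given in the sources used here. Labels name poly(A) selection and the methods rRNA removal with stranded libraries. In position, 99.9% of 12492 coding loci matched by symbol overlapped RefSeq (Sscrofa11.1), which has no strand column.

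Members and gene lists were chosen with earlier results of these data known. CPM is the deposited count scaled to a library total of 1000000. Loci whose FPKM averaged 0.1 or more were fitted with edgeR 4.0.16 (quasi-likelihood, TMM), pairs with a mean count of at least 10 in both loci with limma 3.58.1 on log2 ratios of counts plus 0.5, in R 4.3.3, and DESeq2 1.42.0 was an alternative. P was adjusted over all loci or pairs (Benjamini-Hochberg). Exact permutation tests are two-sided, and p-values measure the spread between these pigs. Correlations used Python 3.11.15 with numpy 2.4.6. Named are the 10 called members of smallest P each way, the 5 of highest FPKM and 5 called ratios each way. The rule also takes the 3 genes with most members and the most counted members of each list. For the genes listed from the study it takes all. Members in TEKT1, TGFBR3, CYP19A1 and CFAP46 were added with their values known. Some members that the rule names are not reported here. On data simulated with 1 fixed spread for all loci and no outlying pigs, edgeR called 99.5% of 200 loci changed by 2 on the log2 scale, among 36339. Many named members vary more between pigs, so this share does not measure sensitivity for them.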

Additional observations from a re-analysis of the deposited data

Results flagged for a closer look

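In the 3 measures per pig and in every member that the naming rule selects, 218 groups of 5 pigs were searched for a pig far from the other 4 by Dixon's ratio, on log2(CPM + 0.5) for members, and 36 were found. Chance flags about 1 in 20 such groups, and members of 1 gene are not independent.

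Control pig 2 was far below the other control pigs in MSTRG.27129 in the GPI locus (0.215 CPM), in MSTRG.18201 at GATAD2A (0.43 CPM) and in MSTRG.35558 in PTPN14 (1.73 CPM), and far above them in MSTRG.25803 in PDZRN4 (18.9 CPM) and in MSTRG.7124 at MAP2K4 (0.0269 CPM, from 2 counts and so under the floor). rpFSH pig 3 was far above its group in MSTRG.9652 at USF3 (6.91 CPM), and control pig 1 in the same member (0.0893 CPM). Control pig 5 was far below the others in MSTRG.23821 at BCL9 (0.266 CPM) and far above them in MSTRG.16794 in DOCK4 (30.8 CPM). rpFSH pig 1 was the only rpFSH pig with counts in MSTRG.9514 in IGSF11 (0.478 CPM) and the only one without in MSTRG.30945 in ZSCAN2 (0 CPM). rpFSH pig 2 alone held MSTRG.17493 at GNG3 (530 CPM).

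Among members of the gene lists, control pig 1 was far below the other control pigs in MSTRG.1770 in IGF1R (0.119 CPM) and control pig 4 in MSTRG.27271 in ACTN4 (20.7 CPM). Control pig 2 was far above them in MSTRG.10614 in SCARB1 (33.1 CPM) and far below in MSTRG.11795 in BMPR1A (28.9 CPM). rpFSH pig 1 was far below its group in MSTRG.20932 in ADCY9 (41.6 CPM), and rpFSH pig 2 alone held MSTRG.13662 in COL5A2 within its group, at 0.0402 CPM, not above the floor.

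In the genes with most members, control pig 2 was far below the other control pigs in 6 members of the chromosome 3 locus, MSTRG.21497 (24.2 CPM), MSTRG.21499 (13.8 CPM), MSTRG.21501 (14.7 CPM), MSTRG.21505 (0 CPM), MSTRG.21508 (54.7 CPM) and MSTRG.21511 (0.859 CPM). In the same locus rpFSH pig 4 was low in MSTRG.21491 (0.81 CPM), and rpFSH pig 2 alone held MSTRG.21494 (0.281 CPM). In AUTS2, control pig 5 (0 CPM) and rpFSH pig 5 (1.48 CPM) were low in MSTRG.20404, and rpFSH pig 1 was high in MSTRG.20421 (98.7 CPM). In DAB1, rpFSH pig 2 was high in MSTRG.29444 (218 CPM), MSTRG.29430 (2.49 CPM) and MSTRG.29423 (0.804 CPM). Control pig 1 alone among the control pigs held MSTRG.29429 (2.17 CPM) and MSTRG.29430 (1.21 CPM), and control pig 4 alone held MSTRG.29423 (0.0407 CPM, the worth of 3 counts).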

How the results depend on the processing

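With other settings the 86 calls among the members ran from 58 to 119. By limma on FPKM with 1 or 0.1 added, 27 and 27 members were called higher in place of 42, and 64 without a filter on FPKM. With the replicate number as a block, 58 members were called, 24 lower in place of 44, and 63 ratios in place of 59. The numbers did not pair the pigs, since same-numbered pigs had deviations correlated at -0.223 to 0.0163. With 1 pig left out, 68 to 94 members and 49 to 69 ratios were called, with 73 and 66 without control pigs 2 and 5. Of the 86 called members, DESeq2 also called 69, limma on FPKM 40 and the fit without control pigs 2 and 5 38. Correlations passed in 570 pairs by Spearman's rho and in 467 without control pigs 2 and 5, in place of 904. MSTRG.8937 in WDR49 changed sign without control pigs 2 and 5 (0.08), and MSTRG.17493 had log2 fold changes of 0.00 to 16.25 with 1 pig left out, the first without rpFSH pig 2, the only pig with counts there. A limit of 50% overlap left 2864 members and whole containment 2636. Checks of sequence features were not run, since they need a genome sequence. Apart from MSTRG.17493 the cause of these shifts was not tested. Depth limits members with 3 counts or fewer, of which each pig had 197 to 217, most of them (171 to 190) at 0.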
